A study of Mus musculus with 6 samples.

Results

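A set of 9 long noncoding RNAs (lncRNAs) was followed in mouse dorsal root ganglion (DRG), the cluster of sensory nerve cell bodies beside the spinal cord. They were *Malat1*, *Neat1*, *Meg3*, *Rian*, *Mirg*, *Miat*, *Snhg11*, *Kcnq1ot1* and *H19*, taken as the 9 rows with these symbols among the 48440 rows of a gene read count table. Bulk RNA sequencing had compared DRGs that received AAV5-*Gfp*, an adeno-associated virus carrying green fluorescent protein, with DRGs that received AAV5-*V1* mixed with AAV5-*V2*, which carry both transcript variants of the nerve injury–specific *NIS-lncRNA*. All libraries came from the L3/4 DRGs of wild-type (WT) male mice after microinjection on 1 side, with 3 libraries per group. The deposited text gives both 4 and 5 weeks after microinjection. The comparison asked which genes lay downstream of the forced expression of *NIS-lncRNA*, whose own counts were not analysed here. The groups also differed in virus preparation, a difference that cannot be told apart from the RNA carried. Nothing in the labels says whether the 3 libraries of a group came from separate mice or from pooled ganglia, or gives the ages of the mice, so each p-value measures the spread between libraries.

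Most of these RNAs are known to stay in the nucleus. *Malat1* is a component of nuclear speckles, where splicing factors collect, and *Neat1* is the scaffold of paraspeckles, bodies built from the RNA together with RNA-binding proteins. *Meg3*, *Rian* and *Mirg* are transcribed in 1 direction from the maternal copy of the imprinted *Dlk1*-*Dio3* region and carry many microRNAs and small nucleolar RNAs (snoRNAs), *Miat* is a neuronal nuclear RNA, and *Snhg11* hosts snoRNAs. *H19* is expressed from the maternal copy and *Kcnq1ot1* from the paternal copy of imprinted genes on the same chromosome.

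In GRCm38 with GENCODE M21, *Malat1* (chr19:5795690-5802672) and *Neat1* (chr19:5824708-5845478) lie on the minus strand with a gap of 22.0 kb. *Meg3* (chr12:109541001-109571726), *Rian* (chr12:109603940-109661716) and *Mirg* (chr12:109729764-109749460) follow each other on the plus strand within 208.5 kb. *H19* (chr7:142575529-142578143) and *Kcnq1ot1* (chr7:143203458-143296549), both on the minus strand, are 625.3 kb apart. *Miat* (chr5:112213228-112229395, minus strand) and *Snhg11* (chr2:158375638-158386145, plus strand) stand alone. GENCODE M21 classes *Snhg11* as protein coding and RefSeq as an lncRNA, so it is absent from counts of annotated lncRNA rows below.

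The start regions of the members that differed most between groups and of *Malat1*, the most abundant, are shown to set the letters at which these transcripts begin beside their levels. Each window holds 250 bases before and 50 from the RefSeq start (GRCm38.p6), read along the gene. RefSeq windows were at hand for 7 of the 9 genes, all but *Neat1* and *H19*. Capitals mark matches, on either strand, to the cAMP response element TGACGTCA, the TATA box letters TATAAA or the ETS core GGAAGT, the letters within the motif that the study examined at *NIS-lncRNA*.
Meg3 (chr12:109540746-109541045, plus strand): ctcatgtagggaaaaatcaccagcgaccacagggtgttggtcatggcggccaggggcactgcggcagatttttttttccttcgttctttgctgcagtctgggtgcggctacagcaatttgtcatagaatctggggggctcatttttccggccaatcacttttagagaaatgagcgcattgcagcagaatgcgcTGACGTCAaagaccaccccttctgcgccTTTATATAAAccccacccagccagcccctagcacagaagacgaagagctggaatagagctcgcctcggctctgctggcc
Snhg11 (chr2:158375463-158375762, plus strand): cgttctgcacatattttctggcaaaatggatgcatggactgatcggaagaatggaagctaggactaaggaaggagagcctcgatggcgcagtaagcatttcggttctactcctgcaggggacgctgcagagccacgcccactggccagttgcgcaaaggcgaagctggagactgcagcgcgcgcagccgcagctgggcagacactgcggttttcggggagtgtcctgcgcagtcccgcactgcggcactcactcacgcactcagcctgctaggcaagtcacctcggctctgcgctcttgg
Miat (chr5:112228899-112229198, minus strand): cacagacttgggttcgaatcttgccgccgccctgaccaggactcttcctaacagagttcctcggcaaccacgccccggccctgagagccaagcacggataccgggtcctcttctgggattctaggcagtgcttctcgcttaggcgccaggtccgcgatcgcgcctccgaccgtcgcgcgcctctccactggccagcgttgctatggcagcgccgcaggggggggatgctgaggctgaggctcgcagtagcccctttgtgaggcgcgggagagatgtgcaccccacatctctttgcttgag
Malat1 (chr19:5802623-5802922, minus strand): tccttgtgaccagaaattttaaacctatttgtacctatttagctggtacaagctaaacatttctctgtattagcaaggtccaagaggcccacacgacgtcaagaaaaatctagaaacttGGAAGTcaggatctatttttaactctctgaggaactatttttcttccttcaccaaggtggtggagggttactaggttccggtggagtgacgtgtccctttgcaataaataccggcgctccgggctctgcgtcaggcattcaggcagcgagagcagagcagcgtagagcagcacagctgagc
The *Meg3* window held TGACGTCA, which starts 57 bases before the start site, a sequence found in 1.79% of all 32851 RefSeq promoter windows. It also held TATAAA on both strands in an overlapping pair, 29 and 25 bases before the start (13.6% of all windows hold at least 1). The *Malat1* window held GGAAGT 131 bases before the start (23.8% of all windows), and none of the 3 motifs was found in the *Snhg11*, *Miat*, *Rian*, *Mirg* or *Kcnq1ot1* windows. A second RefSeq window of *Meg3* held none of them. CG dinucleotides numbered 25 in the *Miat* window, 21 in that of *Snhg11*, 13 in that of *Meg3* and 10 in that of *Malat1*. These matches describe letters and say nothing of binding in these ganglia.

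*Meg3*, *Rian*, *Mirg* and *H19* are also hosts of microRNAs. RefSeq places 106 mature arms from 57 hairpins between the start of *Meg3* and the end of *Mirg*, of which 3 arms lie inside *Meg3*, 6 inside *Rian* and 26 inside *Mirg*, and *H19* holds another 2. The arms shown are 1 of each host and those of *Mirg* that share a seed, bases 2 to 8, in capitals.
miR-770-5p: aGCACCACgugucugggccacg
miR-370-3p: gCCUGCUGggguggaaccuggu
miR-134-5p: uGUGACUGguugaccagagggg
miR-453: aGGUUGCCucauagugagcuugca
miR-496a-5p: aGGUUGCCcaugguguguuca
miR-410-5p: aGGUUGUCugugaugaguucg
miR-494-5p: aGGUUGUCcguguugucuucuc
miR-675-5p: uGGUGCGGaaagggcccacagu
The first comes from *Meg3*, the second from *Rian*, the next 4 from *Mirg*, miR-494-5p from between *Rian* and *Mirg*, and miR-675-5p from *H19*. Within *Mirg*, miR-453 and miR-496a-5p have the same seed, and miR-410-5p shares its seed with miR-494-5p. Over the whole interval the 106 arms had 97 distinct seeds, 9 of them in more than 1 arm. The count table lists all 59 microRNA genes and all 23 snoRNA genes that GENCODE places on this strand from *Meg3* to *Mirg*, each at 0 in all 6 libraries. Levels of the mature small RNAs were thus not measured, and the host counts do not stand in for them.

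The libraries held 32025612 to 34764282 counts in total. Values below are counts per 1000000 (CPM) after edgeR's trimmed mean of M values (TMM) scaling, and a fold change is AAV5-*V1+V2* against AAV5-*Gfp*. A gene was called when edgeR's quasi-likelihood test gave a Benjamini-Hochberg adjusted p under 0.05 over all 18593 genes tested. Of those genes, 10.1% were called higher and 5.27% lower with AAV5-*V1+V2*. All 22 DRG neuron markers were detected, led by the neurofilament genes *Nefm* and *Nefl*, and 3 of them were called lower. Their summed CPM was 12086 to 13091 in the AAV5-*Gfp* group and 7754 to 11142 in the other, where replicate 1 was lowest. Immune cell markers were higher, with 10 of 12 macrophage genes called (led in abundance by *Lyz2* and *Ptprc*), 10 of 10 B and plasma cell genes (*Jchain* and *Ighm*) and 9 of 10 T and NK cell genes (*Cd4* and *Lck*). Without AAV5-*Gfp* replicate 2 or without AAV5-*Gfp* replicate 3 these counts were 0, 1 (*Jchain*) and 0, and 5 macrophage genes were called without AAV5-*Gfp* replicate 1. Some of the B and T cell genes were near 0 with AAV5-*Gfp*, such as *Mzb1* (0.34, 0.14 and 0.03 CPM) and *Cd3d* (0.46, 0.23 and 0.19 CPM). They passed the filter on low counts only through the AAV5-*V1+V2* libraries, which in part fixed these counts of calls. Of 11 T and NK cell genes listed, 10 were tested. The 3 neuron marker calls became 0 without any 1 AAV5-*Gfp* replicate or AAV5-*V1+V2* replicate 2 and 10 without AAV5-*V1+V2* replicate 1 or replicate 3. Summed CPM of the macrophage list was 223 to 312 in the AAV5-*Gfp* group and 696 to 1864 in the other. In bulk tissue, fewer cells of a type and less RNA per cell cannot be told apart. Skeletal muscle markers summed to between 7.67 and 356 CPM with no separation of the groups.

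Of the 9 lncRNAs, 8 passed the filter on low counts. Of these, 1 was called lower, *Snhg11*, and 0 were called higher. At an unadjusted p under 0.05 the numbers were 5 lower and 1 higher, against 2878 lower and 3577 higher of all 18593 genes tested. The 5 were *Meg3*, *Rian*, *Mirg*, *Miat* and *Snhg11*, and in each of them every AAV5-*V1+V2* library lay below every AAV5-*Gfp* library, a pattern seen in 22% of all genes tested. In the opposite direction, found in 23.4% of all genes, stood *Neat1* alone among the 8. The median log2 fold change of the 8 was -0.41, against -0.00030 for all genes tested and -0.07 for the 1739 annotated lncRNA rows, of which 4.66% were called higher and 4.03% lower. In the AAV5-*Gfp* libraries, *Malat1* ranked 1st, *Meg3* 5th, *Rian* 9th, *Neat1* 14th, *Miat* 17th, *Mirg* 46th and *H19* 142nd among those rows by CPM.

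**Figure D1:**
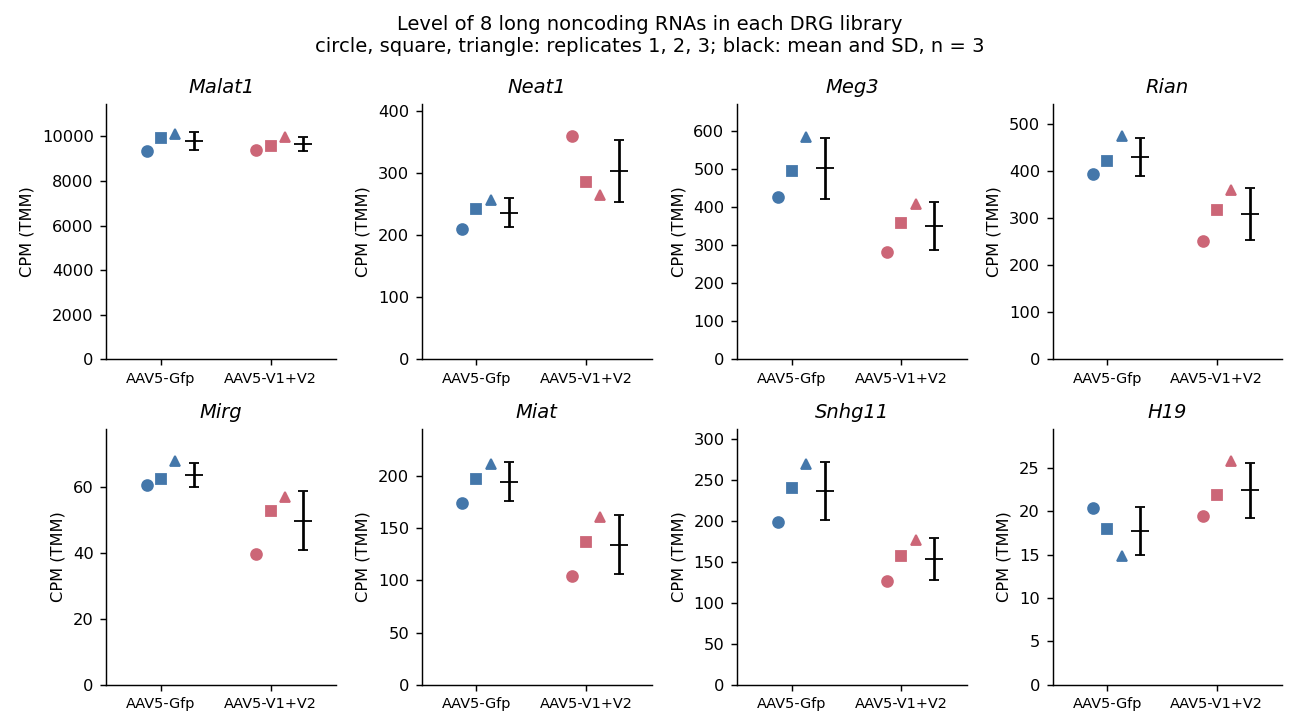
CPM (vertical axis, from 0) of 8 lncRNAs in the 3 AAV5-*Gfp* (blue) and 3 AAV5-*V1+V2* (red) libraries, with symbols for replicates and black bars for mean and SD. *Meg3*, *Rian*, *Mirg*, *Miat* and *Snhg11* lie lower in all 3 red libraries, *Neat1* higher, and *Malat1* and *H19* overlap.

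*Malat1* took 0.918% to 1.00% of all counts in each library and ranked 5th of all genes tested. Its CPM was 9328, 9923 and 10109 in the AAV5-*Gfp* group and 9383, 9552 and 9988 in the AAV5-*V1+V2* group. The groups overlapped throughout, and the means of 9787 ± 408 (SD, n = 3) and 9641 ± 312 were within 1 SD of each other. The log2 fold change was -0.02 (SE 0.15, edgeR adjusted p = 0.929) with a 95% interval from -0.36 to 0.32, and its sign turned with the scaling or the libraries used. Changes within that interval, in either direction, were not excluded by this fit. With other settings on all 6 libraries the SE ran from 0.069 with DESeq2 to 0.154 without the filter.

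*Neat1* counts cover the whole 20771-base gene and do not separate its short and long isoforms. Its CPM was 210, 242 and 256 in the AAV5-*Gfp* group and 360, 285 and 265 in the AAV5-*V1+V2* group. Every AAV5-*V1+V2* library lay above every AAV5-*Gfp* library, although replicate 3 of the one exceeded replicate 3 of the other by little. The fold change was 1.28, a log2 fold change of 0.36 (SE 0.13, edgeR adjusted p = 0.104), and the call was not made. Without AAV5-*V1+V2* replicate 1, where *Neat1* was highest, the log2 fold change was 0.22 (edgeR adjusted p = 0.138).

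A ratio of these RNAs inside a library needs no scaling between libraries. *Neat1* counts amounted to 2.25%, 2.44% and 2.53% of *Malat1* counts in the AAV5-*Gfp* group and to 3.83%, 2.98% and 2.65% in the AAV5-*V1+V2* group. The groups did not overlap, and the difference was 0.38 on the log2 scale. By exact permutation, two-sided, p was 0.1, which is the lowest value possible with 3 libraries per group, and 0.25 after adjustment over 5 such ratios. Without AAV5-*V1+V2* replicate 1 the log2 difference was 0.23.

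Genes around *Malat1* and *Neat1* gave 0 calls in either direction among 11 tested (edgeR), with 4 higher and 1 lower at an unadjusted p under 0.05. Over all 18593 genes the unadjusted counts were 3577 higher and 2878 lower. Among 22 paraspeckle protein genes 1 was called higher, *Dazap1* (log2 fold change 0.33, SE 0.09, edgeR adjusted p = 0.0424), which encodes an RNA-binding protein, and 0 lower. The list's median log2 fold change was 0.07. In 11 of the 22 every AAV5-*V1+V2* library lay above every AAV5-*Gfp* library, against 23.4% of all genes tested, and in 1 every one lay below. Of 25 nuclear speckle and splicing factor genes, 1 was called higher, the splicing factor *Srsf3* (log2 fold change 0.26, SE 0.06, edgeR adjusted p = 0.0374), and 0 lower. Their median was 0.16, and 17 of the 25 had every AAV5-*V1+V2* library above every AAV5-*Gfp* library, against 23.4% of all genes tested.

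The imprinted trio on chromosome 12 was lower in all AAV5-*V1+V2* libraries without reaching the threshold. *Meg3* stood at 427, 496 and 586 CPM with AAV5-*Gfp* and at 284, 358 and 410 CPM with AAV5-*V1+V2*. The highest AAV5-*V1+V2* library came close to the lowest AAV5-*Gfp* library, and AAV5-*V1+V2* replicate 1 was the lowest of all. The means were 503 ± 79.6 and 351 ± 63.6 (SD, n = 3), a fold change of 0.697 and a log2 fold change of -0.52 (SE 0.17, edgeR adjusted p = 0.0718).

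*Rian* as annotated holds some of the snoRNAs of the region. It stood at 394, 423 and 475 CPM with AAV5-*Gfp* and at 251, 318 and 361 CPM with AAV5-*V1+V2*. The groups were separate, again with AAV5-*V1+V2* replicate 1 lowest. The log2 fold change was -0.47 (SE 0.14, edgeR adjusted p = 0.0643). *Mirg* as annotated holds 14 of the 57 microRNA hairpins of the region. It stood at 60.6, 62.5 and 67.8 CPM and at 39.7, 52.7 and 56.8 CPM in the same order of groups. Here the AAV5-*Gfp* libraries were close together and the AAV5-*V1+V2* libraries more spread, with SDs of 3.71 and 8.96 CPM. The log2 fold change of *Mirg* was -0.36 (SE 0.13, edgeR adjusted p = 0.104), and -0.21 (edgeR adjusted p = 0.0709) without AAV5-*V1+V2* replicate 1.

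The proportions of the trio to each other were compared inside each library. *Rian* amounted to 92.2%, 85.2% and 81.0% of *Meg3* counts in the AAV5-*Gfp* group and to 88.6%, 88.9% and 88.1% in the AAV5-*V1+V2* group, a log2 difference of 0.04 (exact permutation p = 0.6). *Mirg* amounted to 14.2%, 12.6% and 11.6% of *Meg3* and to 13.99%, 14.7% and 13.9%, a log2 difference of 0.15 (exact permutation p = 0.3). Both ratios overlapped between the groups. They did not overlap without AAV5-*Gfp* replicate 1, with log2 differences of 0.091 and 0.23, and without AAV5-*Gfp* replicate 3 the differences were -0.0019 and 0.085. *Mirg* relative to *Rian* was 15.4%, 14.8% and 14.3% in the AAV5-*Gfp* group and 15.8%, 16.6% and 15.7% in the AAV5-*V1+V2* group, slightly higher in every AAV5-*V1+V2* library. That difference of 0.11 on the log2 scale had an exact permutation p of 0.1 (0.25 after adjustment over the 5 ratios).

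The interval from *Meg3* to *Mirg* holds 100 rows of the table. The 6 that passed the filter were lower in every AAV5-*V1+V2* library, a pattern seen in 22% of all genes tested. Besides the trio these were *Rtl1*, *Gm37899* and *B830012L14Rik*, singled out after their values were seen. *Rtl1* (chr12:109589193-109600330), a retrotransposon-derived coding gene on the opposite strand, had a log2 fold change of -0.39 (SE 0.12, edgeR adjusted p = 0.0718). Plus-strand microRNAs lie within its span and the use of strand in counting is not given. Reads of *Rtl1* and of any plus-strand RNA over it therefore cannot be told apart. Between *Rian* and *Mirg*, on their strand, *Gm37899* (chr12:109668869-109677585) had a log2 fold change of -0.64 (SE 0.20, edgeR adjusted p = 0.0721). The lncRNA row *B830012L14Rik* (chr12:109695586-109702587) was the 1 row of the interval called lower, with 199, 224 and 290 counts against 116, 147 and 148 and a log2 fold change of -0.84 (SE 0.19, edgeR adjusted p = 0.0322). As a share of *Meg3* counts it was 1.45%, 1.31% and 1.59% in the AAV5-*Gfp* group and 1.25%, 1.24% and 1.06% in the AAV5-*V1+V2* group (log2 difference -0.29, exact permutation p = 0.1, adjusted p = 0.2 over 3 ratios). The coding genes at the ends of the domain, *Dlk1* and *Dio3*, had at most 8 counts in any library and were not tested. Of the 8 cluster coding genes and neighbours tested, *Rtl1* included, 0 were called in either direction by edgeR. At an unadjusted p under 0.05 there were 1 higher and 1 lower, against 3577 and 2878 of all 18593 genes.

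**Figure D2:**
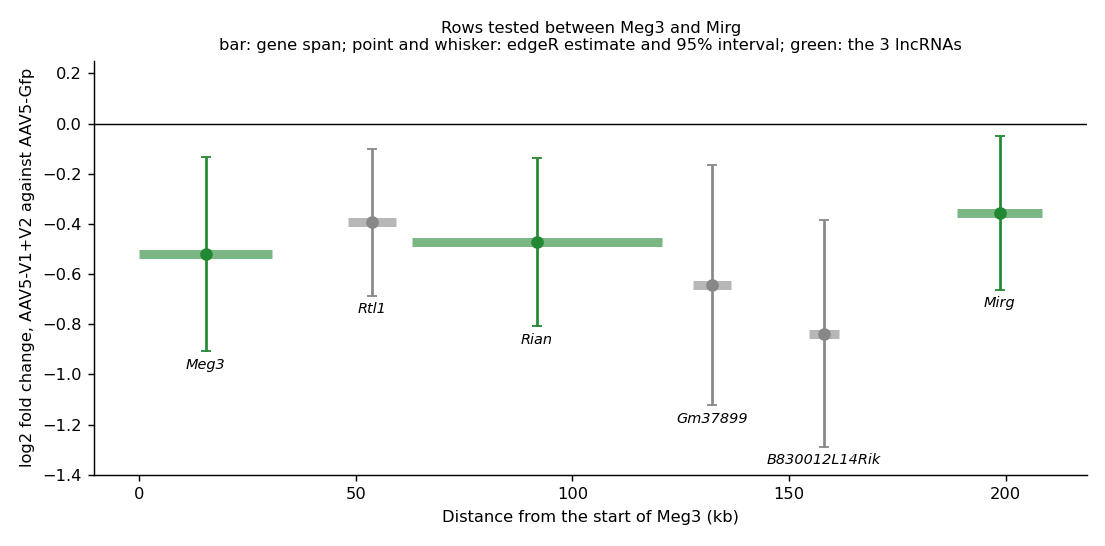
log2 fold change (vertical axis) of the 6 rows tested between *Meg3* and *Mirg*, by distance from the start of *Meg3* in kb (horizontal axis), with bars for gene spans and whiskers for 95% intervals from edgeR. All 6 estimates lie below 0, from -0.84 for *B830012L14Rik* to -0.36 for *Mirg*, and their intervals overlap.

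*Miat*, a nuclear RNA of neurons, stood at 174, 197 and 212 CPM with AAV5-*Gfp* and at 104, 137 and 160 CPM with AAV5-*V1+V2*. All AAV5-*V1+V2* libraries were lower, replicate 1 most of all. The means were 194 ± 18.8 and 134 ± 28.2 (SD, n = 3), and the log2 fold change was -0.54 (SE 0.16, edgeR adjusted p = 0.0581).

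*Snhg11* had the largest difference of the 8. It stood at 199, 241 and 269 CPM with AAV5-*Gfp* and at 126, 157 and 177 CPM with AAV5-*V1+V2*. The groups did not overlap. *Snhg11* fell to 0.649 of its AAV5-*Gfp* level, with a log2 fold change of -0.62 (SE 0.15, edgeR adjusted p = 0.0368) and a 95% interval from -0.98 to -0.27. The call was lost when any 1 of 4 libraries was left out, namely AAV5-*Gfp* replicate 1 (edgeR adjusted p = 0.0556), AAV5-*Gfp* replicate 2 (0.117), AAV5-*Gfp* replicate 3 (0.133) or AAV5-*V1+V2* replicate 2 (0.0847), with log2 fold changes between -0.73 and -0.52. Over all 17 alternatives its adjusted p ran from 0.000905 to 0.133.

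*Meg3*, *Rian*, *Mirg*, *Miat* and *Snhg11* all had their highest value in AAV5-*Gfp* replicate 3 and their lowest in AAV5-*V1+V2* replicate 1. The summed neuron markers were also highest and lowest in those libraries. Abundant markers such as *Nefm* and *Nefl* (log2 fold changes -0.31 and -0.28) weigh most in this sum. Over the 22 markers the log2 fold changes ran from -0.93 to -0.20, with a median of -0.37. Set against that sum within each library, *Meg3* was 3.37%, 4.10% and 4.48% in the AAV5-*Gfp* group and 3.66%, 3.37% and 3.68% in the AAV5-*V1+V2* group. The groups overlapped, and the log2 difference was -0.15 (exact permutation p = 0.4). *Snhg11* was 1.57%, 1.99% and 2.06% of the neuron marker sum against 1.63%, 1.48% and 1.59%, likewise overlapping (log2 difference -0.25, exact permutation p = 0.3). For *Rian* the log2 difference was -0.11 (exact permutation p = 0.3), for *Miat* -0.18 (exact permutation p = 0.2) and for *Mirg* 0.0063 (exact permutation p = 1). None of these 5 ratios separated the groups over all 6 libraries, on a scale chosen after the values were seen. In all 5 the overlap rested on AAV5-*Gfp* replicate 1, which was the lowest AAV5-*Gfp* library in each. Without AAV5-*Gfp* replicate 1 all 5 ratios lay lower in every AAV5-*V1+V2* library. The log2 differences were then -0.26 for *Meg3*, -0.37 for *Snhg11*, -0.17 for *Rian*, -0.26 for *Miat* and -0.032 for *Mirg*. The *Miat* ratio also separated the groups without AAV5-*V1+V2* replicate 3 (log2 difference -0.22). Without AAV5-*Gfp* replicate 3 those of *Meg3* and *Rian* were -0.059 and -0.061, and without AAV5-*V1+V2* replicate 2 that of *Rian* was -0.069. The small *Mirg* difference lay between -0.032 and 0.026 over all leave-outs.

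Against the same sum *Malat1*, *Neat1* and *H19* all lay higher in every AAV5-*V1+V2* library, with log2 differences of 0.36, 0.73 and 0.72 (exact permutation p = 0.1 for each, 0.267 after adjustment over 8 ratios). Without AAV5-*V1+V2* replicate 1 they were 0.21 for *Malat1*, 0.44 for *Neat1* and 0.65 for *H19*, and the groups stayed separate. *Malat1* was 73.5%, 82.1% and 77.2% of the sum in the AAV5-*Gfp* group and 121%, 90.0% and 89.6% in the AAV5-*V1+V2* group. The ratios move with the neuron markers as well as with each lncRNA, and the part of cell composition in the fold changes was not tested.

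**Figure D3:**
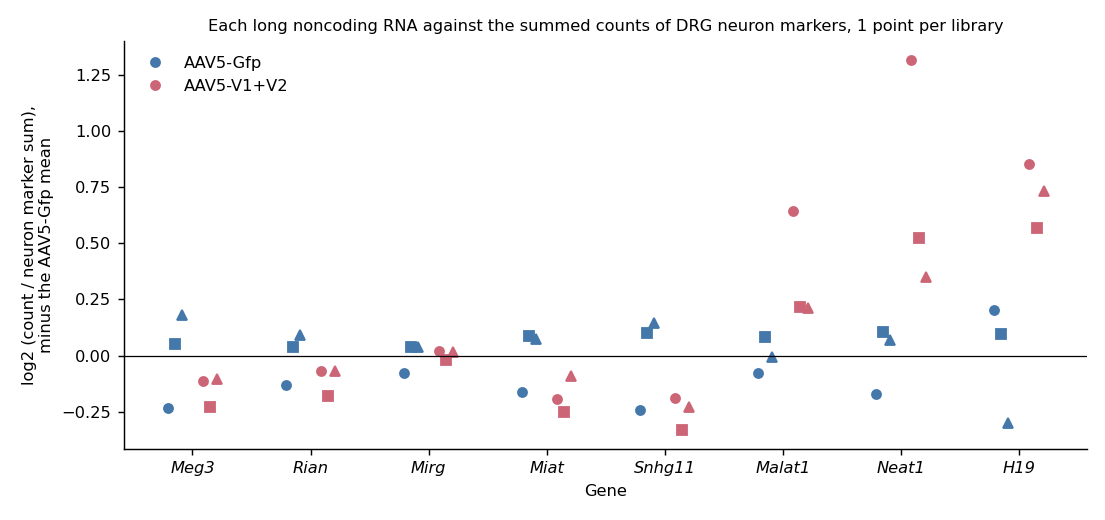
log2 ratio of each lncRNA's counts to the summed counts of 22 DRG neuron markers in the same library (vertical axis, minus the AAV5-*Gfp* mean), 1 point per library. The 5 RNAs on the left overlap between AAV5-*Gfp* (blue) and AAV5-*V1+V2* (red) through AAV5-*Gfp* replicate 1, for *Miat* with AAV5-*V1+V2* replicate 3 only. *Malat1*, *Neat1* and *H19* lie higher in all 3 AAV5-*V1+V2* libraries.

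*H19*, a growth-restraining imprinted RNA known from embryonic tissue, ranked 8194th of all genes tested. It stood at 20.3, 18.0 and 14.8 CPM with AAV5-*Gfp* and at 19.5, 21.9 and 25.7 CPM with AAV5-*V1+V2*. A single AAV5-*V1+V2* library lay inside the AAV5-*Gfp* range, and the log2 fold change was 0.34 (SE 0.15, edgeR adjusted p = 0.146), and 0.22 (edgeR adjusted p = 0.347) without AAV5-*Gfp* replicate 3. *Igf2*, the growth factor gene that shares its enhancers with *H19*, had a log2 fold change of 0.34 (SE 0.24, edgeR adjusted p = 0.341). *H19* amounted to 34.1%, 44.8% and 48.6% of *Igf2* counts in the AAV5-*Gfp* group and to 40.1%, 43.5% and 38.9% in the AAV5-*V1+V2* group, a log2 difference of -0.04 (exact permutation p = 0.9). Without 1 library it ran from -0.195 to 0.059, the lowest without AAV5-*Gfp* replicate 1 and the highest without AAV5-*Gfp* replicate 3.

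*Kcnq1ot1*, the antisense RNA that silences its neighbours on the paternal copy, was listed with 0, 1 and 1 counts with AAV5-*Gfp* and 0, 0 and 2 counts with AAV5-*V1+V2*. All values were at or under the floor of 3 counts. The gene did not pass the filter on low counts, so that no fold change is given. The gene lies wholly inside *Kcnq1* on the other strand, and *Kcnq1* was listed with 4490 to 5921 counts. The library kit marks strand, but whether the counting used it is not given in the sources used here, so reads of the pair cannot be told apart. *Kcnq1* had a log2 fold change of -0.22 (SE 0.10, edgeR adjusted p = 0.189). Of 15 genes tested in the *Kcnq1* and *Igf2* clusters, 2 were called higher and 0 lower, against 10.1% and 5.27% of all genes tested. Both were genes of white blood cells, *Tspan32* (log2 fold change 2.36, SE 0.35, edgeR adjusted p = 0.0144) and *Lsp1* (log2 fold change 1.27, SE 0.22, edgeR adjusted p = 0.0170). Macrophage, B and plasma cell and T and NK cell markers were also higher, as given above, and a link between them and these 2 genes was not tested.

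Levels of different genes were compared per kb of annotated exon. On this scale *Malat1* stood at 1402 ± 58.5 CPM per kb (SD, n = 3) with AAV5-*Gfp*, far above the others. *Meg3* (27.8 CPM per kb), *Snhg11* (27.7), *Rian* (23.6) and *Miat* (20.9) followed, each overlapping the next over the 3 libraries. *Neat1* (11.4 CPM per kb), *Mirg* (8.73) and *H19* (7.19) came after them in ranges that did not overlap. With AAV5-*V1+V2* the order began with *Malat1* at 1381 CPM per kb, *Meg3* at 19.4, *Snhg11* at 18.0, *Rian* at 17.0, *Neat1* at 14.6 and *Miat* at 14.4. From *Meg3* to *Miat* neighbours overlapped there, *Neat1* stood between *Rian* and *Miat*, and *H19* at 9.09 lay above *Mirg* at 6.82. The summed exon length of all annotated transcripts was used for each gene, from 2460 bases for *H19* to 20771 for *Neat1* among these 8.

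**Figure D4:**
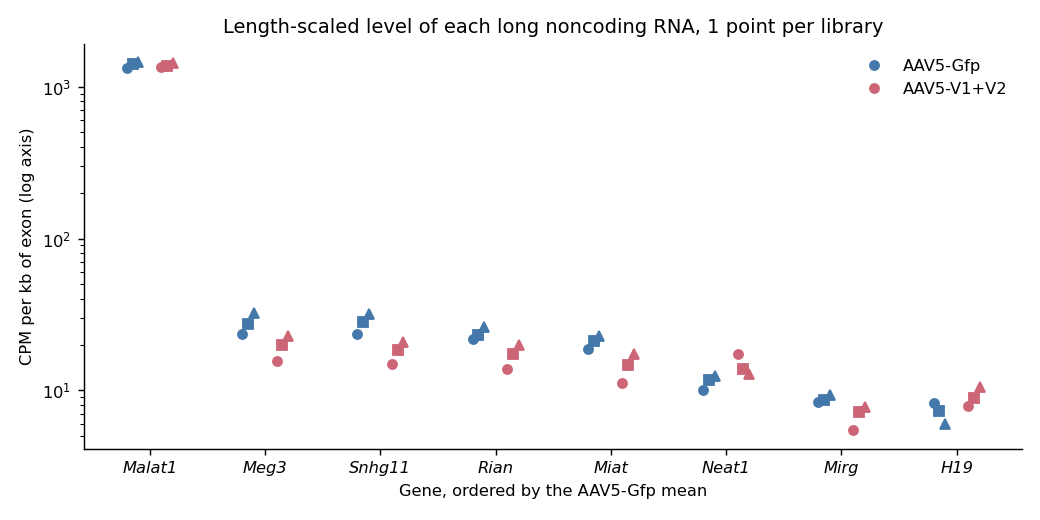
CPM per kb of exon (log axis) of each lncRNA in every library, AAV5-*Gfp* in blue and AAV5-*V1+V2* in red, ordered by the AAV5-*Gfp* mean. *Malat1* lies between 1336 and 1448 CPM per kb and every other value at or below 32.4 CPM per kb, with *Neat1* and *H19* higher in red on average and *Meg3*, *Snhg11*, *Rian*, *Miat* and *Mirg* lower.

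The genes with the profile nearest to *Meg3* over the 6 libraries, by root mean square difference of centred log2 CPM among 11120 genes, were *Kcnk10*, *Cdh20* and *Dgkg*. The differences were 0.038, 0.039 and 0.044 log2 units. Their log2 fold changes were -0.55, -0.54 and -0.57, and *Cdh20* (edgeR adjusted p = 0.0472) and *Dgkg* (0.0391) were called lower. Values near that of *Meg3* follow from the choice, as the genes were picked by likeness to it in the same libraries. Both calls were lost without AAV5-*Gfp* replicate 2 and without AAV5-*Gfp* replicate 3, where 0 genes were called lower. Those nearest to *Malat1* were *Hsd17b12*, *4930533O14Rik* and *Golga4*, at 0.013, 0.015 and 0.019 log2 units.

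Other imprinted genes gave 0 higher and 5 lower calls among 32 tested, against 10.1% higher and 5.27% lower of all genes tested. The median log2 fold change of the 32 was -0.24. Those with the smallest adjusted p were *Rasgrf1* (log2 fold change -0.45, SE 0.08, edgeR adjusted p = 0.0184), *Usp29* (-0.87, SE 0.19, 0.0289) and *Snhg14* (-0.59, SE 0.14, 0.0366). *Rasgrf1* encodes a neuronal guanine nucleotide exchange factor, and *Snhg14* is the long snoRNA host transcript of the Prader-Willi/Angelman region. Their libraries did not overlap between the groups. In 17 of the 32 genes every AAV5-*V1+V2* library lay below every AAV5-*Gfp* library, against 22% of all genes tested.

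Among 49 other lncRNAs tested, *Snhg14* and *B830012L14Rik* from above included, 9 were called higher and 6 lower. Of all genes tested 10.1% were called higher and 5.27% lower, and of the annotated lncRNA rows 4.66% and 4.03%. Against -0.07 for those rows, the median log2 fold change of this chosen list was 0.20. The smallest adjusted p belonged to *Mir142hg* (log2 fold change 2.80, SE 0.37, edgeR adjusted p = 0.0144) and *Mir155hg* (1.94, SE 0.29, 0.0144), the hosts of microRNAs of blood and immune cells, and to the snoRNA host *Snhg17* (0.67, SE 0.12, 0.0182). Of 16 snoRNA hosts tested, *Snhg11* included, 4 were called higher (*Snhg7*, *Snhg17*, *Snhg20* and *Zfas1*) and 2 lower (*Snhg11* and *Snhg14*). In 14 of them the log2 fold change was above 0, where the median over all genes tested was -0.00030. *Snhg7* stood at only 0.25, 0.43 and 0.16 CPM with AAV5-*Gfp* and passed the filter on low counts through the AAV5-*V1+V2* libraries. Each call named for *Snhg11* and for single genes of the paraspeckle, speckle, *Kcnq1*-*Igf2*, imprinted and other lncRNA lists was lost without AAV5-*Gfp* replicate 2 and without AAV5-*Gfp* replicate 3, fits in which 12 and 15 genes of the whole table were called higher and 0 lower (edgeR), against 2029 and 1815 lower at an unadjusted p under 0.05.

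**Figure D5:**
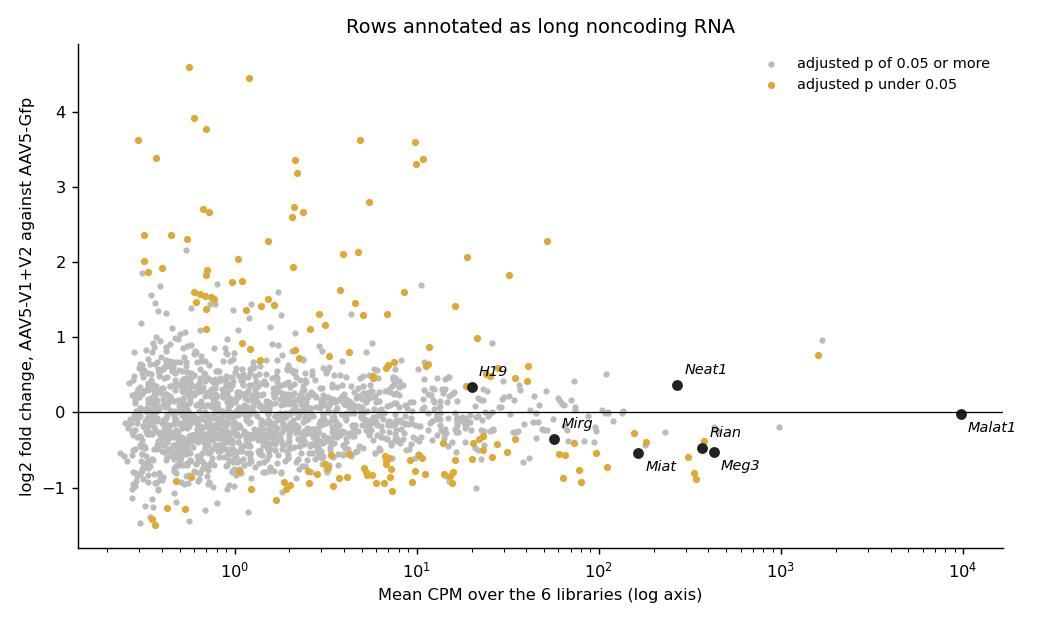
log2 fold change (vertical axis) against mean CPM over the 6 libraries (log axis) for the 1739 annotated lncRNA rows tested, with rows called by edgeR in yellow and 7 named RNAs in black. The named RNAs sit at the abundant end, *Malat1* near 0, *Neat1* and *H19* above 0 and *Meg3*, *Rian*, *Mirg* and *Miat* below 0.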

How the data were processed

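Read counts per gene, as whole numbers without normalization, were deposited by the authors as 1 table of 6 libraries made from total RNA with a strand-marking kit. Per the labels, the build was GRCm38 (mm10), while the aligner, the annotation, the use of strand and the handling of reads from several genes are not given in the sources used here. Of 48440 rows, 46283 matched a GENCODE M21 symbol. Counts were filtered (filterByExpr), scaled by TMM and tested by quasi-likelihood in edgeR 4.0.16 (R 4.3.3), without covariate, over all 6 libraries. SE is the absolute log2 fold change over the square root of F. Alternatives used limma 3.58.1 and DESeq2 1.42.0. The test was tried on simulated counts with 200 changed genes. Ratios within a library used a prior count of 0.5 and exact permutation. The floor of 3 counts covers counting error only.

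Members, gene lists and comparisons were chosen with earlier results of these data known. Named genes were the 9 members, called genes of the *Dlk1*-*Dio3*, *Kcnq1*-*Igf2* and *Malat1*-*Neat1* lists, the 3 called genes of smallest adjusted p of each other pathway list, the 3 nearest profiles to *Meg3* and *Malat1*, and the 2 most abundant genes of the neuron and immune cell lists. The lists of satellite glia (1 of 9 called higher), Schwann (0 of 7), fibroblast (3 of 7 higher), endothelial (1 higher and 1 lower of 6), erythrocyte (0 of 6), proliferation (7 of 8 higher) and skeletal muscle markers (0 of 6) and the 1 spinal cord marker tested (0 called) were also read. Within groups, chi-square values per degree of freedom between libraries were 8.83 to 52.8, so no library was a copy of another. Same-numbered libraries correlated at 0.04, 0.07 and 0.11 in their deviations from the group means and were not treated as pairs. The leave-outs of the ratios to the neuron markers and of the list counts were added after the data were seen.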

Additional observations from a re-analysis of the deposited data

How the results depend on the processing

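Over 17 alternative settings, *Neat1*, *Meg3*, *Rian*, *Mirg*, *Miat*, *Snhg11* and *H19* kept their direction in all 17 and *Malat1* in 14. *Snhg11* was called in 13, *Miat* in 6, *Meg3* and *Rian* in 4, *Mirg* in 3 and *Malat1*, *Neat1* and *H19* in 0. *Malat1* had a log2 fold change of 0.037 with total counts only, between -0.055 and 0.0024 without 1 replicate each (0.0014 without AAV5-*Gfp* replicate 3 and 0.0024 without AAV5-*V1+V2* replicate 1) and 0.36 over the neuron marker sum, where *Mirg* had 0.0063. Without 1 replicate each, the log2 difference of *Rian* to *Meg3* ran from -0.0019 to 0.091 and that of *H19* to *Igf2* from -0.195 to 0.059, with a change of sign in both.

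Members called lower numbered 2 without the filter, 4 with DESeq2 or an adjusted p under 0.1, 5 with voom sample weights and 0 to 5 without 1 replicate each, with 0 in the 4 fits without an AAV5-*Gfp* replicate or AAV5-*V1+V2* replicate 2, 2 without AAV5-*V1+V2* replicate 1 and 5 without AAV5-*V1+V2* replicate 3. All genes called higher and lower numbered 2898 and 2030 at an adjusted p under 0.1, 2405 and 1606 with DESeq2, 2725 and 1995 with voom sample weights, and 12 to 2474 and 0 to 1446 without 1 replicate each. Called lncRNA rows numbered 133 higher and 168 lower with voom sample weights and 0 to 109 and 0 to 97 without 1 replicate each. A fit with the replicate number as a block called 5 members lower (2118 genes higher and 1341 lower in all). The libraries share only a number, and 5 of the 6 correlated best with their own.

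With 3 libraries per group, exact permutation cannot go below p = 0.1. Isoforms and parental alleles are not resolved by counts per gene. The causes of these differences between settings were not tested.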
